A study of Mus musculus with 6 samples.

Results

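The 8 transcription factors that keep the identity of hepatocytes, the main cells of the liver, were followed in mouse livers with and without a guide RNA against Prdx2, the gene of an enzyme that breaks down peroxides. They are Hnf4a, Cebpa, Cebpb, Foxa1, Foxa2, Foxa3, Onecut1 and Prox1, and they were taken by symbol from the table of gene counts. All 8 were among its 52459 genes, and all 8 passed the filter on low counts that left 17032 genes to test. The livers came from male C57BL6J mice of the F1 generation of an Alb-Cre by Cas9 cross, 8 months old, in which Cre under the albumin promoter switched on Cas9 in hepatocytes. The sgCtrl group held 3 mice (5.1, 7.1 and 7.2) given an AAV8 vector with a control guide RNA, and the sgPrdx2 group held 3 mice (1.1, 1.3 and 3.2) given the same vector with the guide RNA against Prdx2. The vector was given at 4 to 5 weeks of age, before the injury. Every mouse of both groups received diethylnitrosamine (DEN, a liver carcinogen, at 100 mg/kg) 3 weeks after the vector. CDAHFD, a choline-deficient high-fat diet that causes steatohepatitis, began 1 week after DEN and lasted 6 months. The comparison thus concerns diseased livers on both sides. The knockout depended on the cells the vector reached, it was made with 1 guide RNA, and RNA was taken from whole frozen liver.

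These factors form a network in which each binds the genes of several others. HNF4A, a nuclear receptor, drives the genes of apolipoproteins, clotting factors and bile acid synthesis. C/EBPα supports metabolic genes and restrains division of hepatocytes, whereas C/EBPβ acts in regeneration and the acute phase response. The FOXA proteins are pioneer factors that open chromatin at liver enhancers. ONECUT1 (HNF6) and PROX1 direct the early growth of liver and bile ducts and stay active in the adult liver. Chronic injury and liver cancer are known for a loss of HNF4A and C/EBPα activity, which gives these genes their interest here.

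Total counts ranged from 37462102 to 46753629 in sgCtrl and from 40454021 to 56865293 in sgPrdx2 livers, so that 3 counts stood for 0.0555 to 0.0921 normalized CPM (counts scaled to the library size), counting error alone being covered by such a floor. On the first principal component, which held 44.9% of the variance, sgPrdx2 liver 3.2 stood apart at 61 from the other sgPrdx2 livers at 19.7 and 10.9, with the sgCtrl livers between -39.4 and -26. Prdx2 RNA was 109, 117 and 132 CPM in sgCtrl livers 5.1, 7.1 and 7.2 and 99.0, 112 and 149 CPM in sgPrdx2 livers 1.1, 1.3 and 3.2, and it is no check of the groups, since cuts by Cas9 need not lower an RNA. The defining markers of hepatocytes were abundant, with 76080 to 81520 CPM for 6 of them summed in sgCtrl and 130500 to 175900 CPM in sgPrdx2 livers. In RNA of a whole organ, fewer cells of a type and less RNA per cell cannot be told apart.

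Cebpa, Cebpb and Foxa2 had the largest positive differences among the 8 factors in sgPrdx2 livers, Hnf4a and Foxa1 had smaller ones, Foxa3 overlapped between groups, and Onecut1 and Prox1 were not separated at all. None of the 8 (0) was called by the edgeR quasi-likelihood fit at a Benjamini-Hochberg adjusted p under 0.05, against 3.33% of all tested genes. At an unadjusted p under 0.05 there were 3 (Cebpa, Cebpb and Foxa2), or 3 of 8 against 24.9% of all genes. DESeq2 called Cebpa and Cebpb, 2 of 8 against 13.4% of the genes to which it gave an adjusted p. At an adjusted p under 0.1, edgeR called Cebpa alone, 1 of 8 against 10.4% of all genes. On the TMM scale used for CPM, every sgPrdx2 liver was above every sgCtrl liver for 5 of the 8 (Hnf4a, Cebpa, Cebpb, Foxa1 and Foxa2), a separation seen in 16.7% of all genes, and none (0) lay wholly lower, which 17.5% did. Counts divided by total counts alone overlapped between groups for each of the 5. The median log2 fold change was 0.32 over the 8 factors and -0.02 over all genes tested. Summed over the 8, the level was 774 ± 36.1 CPM in the controls and 1019 ± 74.2 CPM in sgPrdx2 livers (SD, n = 3 each).

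**Figure D1:**
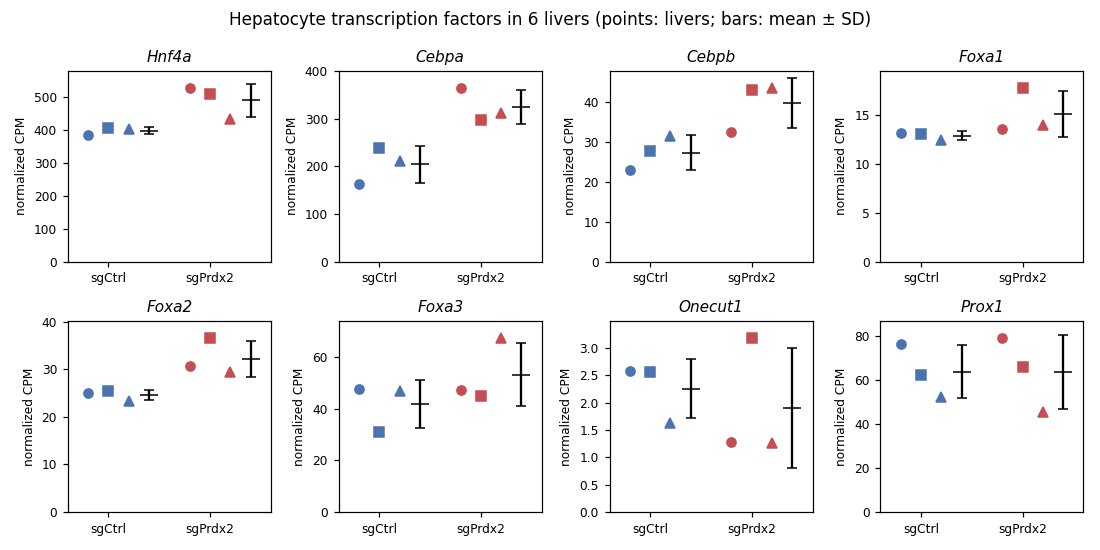
Level of each of the 8 factors in normalized CPM (vertical axis, from 0) in 3 sgCtrl (blue) and 3 sgPrdx2 (red) livers; circles, squares and triangles are mice 5.1, 7.1 and 7.2 or 1.1, 1.3 and 3.2, and the black bars show the mean ± SD. On this scale, set by TMM, the red points lie above all blue points for Hnf4a, Cebpa, Cebpb, Foxa1 and Foxa2, and overlap with them for Foxa3, Onecut1 and Prox1.

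Hnf4a (ENSMUSG00000017950.16, GRCm38 chr2:163506808-163572910, plus strand), the nuclear receptor at the head of the network, was measured at 384, 405 and 403 CPM in sgCtrl livers 5.1, 7.1 and 7.2. It reached 527, 508 and 433 CPM in sgPrdx2 livers 1.1, 1.3 and 3.2. The groups did not overlap, and liver 3.2 was the nearest of the sgPrdx2 livers to the controls. The means were 397 ± 11.2 and 489 ± 49.3 CPM (SD, n = 3 each), a log2 fold change of 0.30 with a standard error of 0.14 and a 95% interval of -0.02 to 0.62, which did not pass edgeR's test (Benjamini-Hochberg adjusted p = 0.229). Without liver 3.2 the log2 fold change was 0.39 (edgeR, adjusted p = 0.106), and it was 0.24 to 0.31 when any other liver was left out (adjusted p from 0.345 to 0.463).

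Counts per gene do not show which promoter was used, and Hnf4a, for instance, has an upstream promoter and a downstream one that is the main one of adult liver. The promoters of the 8 factors, 12 in all and each covering 250 bases before and 50 after a start in RefSeq (GRCm38.p6), were searched on both strands for TGTTTAC (a FOXA motif), CAAAGTCCA (HNF4A), TTGCNNAA (C/EBP) and ATCGAT (ONECUT). A match to these 4 motifs was found in 1 of the 12. This promoter, of Foxa1 (chr12:57546062-57546361, minus strand), is shown because it holds letters that its own family of factors binds. Capitals mark the FOXA match, at -141 from the start and read as its reverse complement.
Foxa1 promoter: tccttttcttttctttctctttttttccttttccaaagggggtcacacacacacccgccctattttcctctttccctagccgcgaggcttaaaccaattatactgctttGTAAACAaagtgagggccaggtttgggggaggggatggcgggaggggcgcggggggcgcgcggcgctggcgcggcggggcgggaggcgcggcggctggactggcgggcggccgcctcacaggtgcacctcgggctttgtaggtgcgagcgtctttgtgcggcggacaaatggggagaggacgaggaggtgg
Of all 32851 RefSeq promoters of this length, 3.65% hold TGTTTAC, 10.8% TTGCNNAA, 0.925% ATCGAT and 0.475% CAAAGTCCA. The match describes this window alone, and binding was not measured.

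Cebpa (ENSMUSG00000034957.10, chr7:35119293-35121928, plus strand, a gene of 1 exon) encodes the C/EBP factor of the resting, metabolic hepatocyte and had the highest fold change of the 8. It was at 163, 238 and 211 CPM in sgCtrl livers 5.1, 7.1 and 7.2, and at 364, 297 and 312 CPM in sgPrdx2 livers 1.1, 1.3 and 3.2. The lowest sgPrdx2 liver was above the highest control, and liver 5.1 was the lowest of all. From 204 ± 38.4 to 325 ± 35.2 CPM (SD, n = 3 each), the ratio of the means was 1.59 and the log2 fold change 0.67 (standard error 0.18, 95% interval 0.26 to 1.08). The adjusted p was 0.0772 by edgeR and 0.00739 by DESeq2, both with Benjamini-Hochberg adjustment, so that the call depended on the tool.

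Cebpb (ENSMUSG00000056501.3, chr2:167688915-167690418, plus strand) encodes the C/EBP factor of regeneration and inflammation, and is also a factor of myeloid cells. It was at 22.8, 27.8 and 31.4 CPM in sgCtrl livers 5.1, 7.1 and 7.2, and at 32.5, 43.1 and 43.5 CPM in sgPrdx2 livers 1.1, 1.3 and 3.2. The groups did not overlap, although sgPrdx2 liver 1.1 lay close to control 7.2. The log2 fold change was 0.54 (standard error 0.17, 95% interval 0.15 to 0.93, adjusted p = 0.111 by edgeR and 0.0490 by DESeq2, Benjamini-Hochberg). None of the 6 markers of macrophages, other cells that express Cebpb, passed edgeR's test (0 higher, 0 lower, with 3 lower at an unadjusted p under 0.05). They had 0 of 6 above and 2 of 6 below all controls (16.7% and 17.5% of all genes), a median log2 fold change of -0.39 (-0.61 without sgCtrl liver 5.1), and summed levels of 2609 to 2809 CPM in sgCtrl and 1788 to 2619 CPM in sgPrdx2 livers. Of the neutrophil markers, 4 of 6 (Ly6g, Ngp, Camp and Mpo) were under the filter. The 2 tested, S100a8 and S100a9, summed to 6.21 to 11.7 CPM in sgCtrl and 7.18 to 11.4 CPM in sgPrdx2 livers. The part of these cells in the Cebpb level was not tested.

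Both C/EBP genes can be compared within a liver, where no scaling between libraries enters. There were 7.12, 8.58 and 6.72 Cebpa counts per Cebpb count in sgCtrl livers 5.1, 7.1 and 7.2, and 11.2, 6.90 and 7.19 in sgPrdx2 livers 1.1, 1.3 and 3.2. Apart from liver 1.1 the ratios lay within the range of the controls. The log2 ratio was 2.89 ± 0.18 in sgCtrl and 3.04 ± 0.39 in sgPrdx2 livers (SD, n = 3 each), a difference of 0.15 that was smaller than the spread (two-sided exact permutation test, p = 0.6, adjusted p = 1 over 4 comparisons within livers, the smallest p of 3 against 3 livers being 0.1).

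Among the pioneer factors, Foxa2 (ENSMUSG00000037025.11, chr2:148042877-148046969, minus strand), which acts in lipid and glucose metabolism of the fasted liver, was at 25.1, 25.4 and 23.4 CPM in sgCtrl livers 5.1, 7.1 and 7.2. It was at 30.6, 36.5 and 29.5 CPM in sgPrdx2 livers 1.1, 1.3 and 3.2. No sgPrdx2 liver fell within the narrow range of the controls. The log2 fold change was 0.39 (standard error 0.13, 95% interval 0.10 to 0.68, adjusted p = 0.117 by edgeR and 0.0767 by DESeq2, Benjamini-Hochberg). Without sgPrdx2 liver 3.2 it was 0.46 (edgeR, adjusted p = 0.0601), and it was 0.31 to 0.42 when any other liver was left out (adjusted p from 0.211 to 0.299).

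Foxa1 (ENSMUSG00000035451.7, chr12:57540628-57546916, minus strand) overlaps with Foxa2 in function and was at 13.2, 13.1 and 12.4 CPM in sgCtrl and 13.5, 17.7 and 14.0 CPM in sgPrdx2 livers, in the same order of mice. The groups were separate, but by a small gap between control 5.1 and sgPrdx2 liver 1.1, and liver 1.3 alone was clearly higher. The log2 fold change of 0.23 (standard error 0.14, 95% interval -0.11 to 0.56) did not pass edgeR's test (Benjamini-Hochberg adjusted p = 0.359), and it was 0.11 without liver 1.3.

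Foxa3 (ENSMUSG00000040891.6, chr7:19013284-19023538, minus strand), the FOXA gene that is active mainly after birth in the liver, was at 47.7, 31.1 and 46.9 CPM in sgCtrl and 47.4, 45.1 and 67.3 CPM in sgPrdx2 livers. The groups overlapped, with control 7.1 low and sgPrdx2 liver 3.2 high. The log2 fold change of 0.35 (standard error 0.22, 95% interval -0.16 to 0.85, edgeR with Benjamini-Hochberg adjustment, adjusted p = 0.359) rested on these livers, being 0.15 without liver 3.2 and 0.17 without control 7.1.

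Per length, Foxa3 gave most of the FOXA transcripts in every liver. Its share of the counts per kb of exon of the 3 FOXA genes was 61.7%, 51.1% and 62.9% in sgCtrl livers 5.1, 7.1 and 7.2 and 57.8%, 51.6% and 66.5% in sgPrdx2 livers 1.1, 1.3 and 3.2. Foxa2 made up 30.2% ± 4.85 and 31.0% ± 5.55, and Foxa1 11.3% ± 1.64 and 10.3% ± 2.00 (SD, n = 3 each, sgCtrl then sgPrdx2). The make-up of the family overlapped between groups for each of the 3 genes (two-sided exact permutation tests, p = 0.5, 0.9 and 1 for Foxa1, Foxa2 and Foxa3, each with an adjusted p of 1).

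Onecut1 (ENSMUSG00000043013.10, chr9:74861921-74891781, plus strand), a factor of hepatocytes and bile ducts, was the lowest of the 8, with 113, 115 and 86 counts in sgCtrl livers 5.1, 7.1 and 7.2 and 56, 172 and 41 counts in sgPrdx2 livers 1.1, 1.3 and 3.2. In normalized values these were 2.58, 2.56 and 1.64 CPM and 1.28, 3.18 and 1.26 CPM. The sgPrdx2 livers enclosed the range of the controls on both sides. The log2 fold change of -0.23 had a standard error of 0.40 and a 95% interval from -1.15 to 0.70, which covers a clear fall as well as a clear rise, and the groups differed by less than their livers did among themselves (edgeR with Benjamini-Hochberg adjustment, adjusted p = 0.748), and it was -0.81 without sgPrdx2 liver 1.3. On the same strand, 52.8% of its exon bases are shared with the lincRNA Gm20649, which has 0 counts in all 6 livers, and how reads in shared exons were assigned is not given in the sources used here, so the level of Onecut1 is uncertain. Its relative Onecut2, at 44.8 to 61.6 CPM in sgCtrl and 47.2 to 67.5 CPM in sgPrdx2 livers, also overlapped between groups (log2 fold change 0.15, edgeR with Benjamini-Hochberg adjustment, adjusted p = 0.633).

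Prox1 (ENSMUSG00000010175.13, chr1:190118035-190170714, minus strand), a homeobox factor of hepatocytes that also specifies lymphatic endothelium, was at 76.1, 62.4 and 52.2 CPM in sgCtrl and 78.8, 65.8 and 45.5 CPM in sgPrdx2 livers. Each group spanned nearly the same range. The means were 63.6 ± 12.01 and 63.4 ± 16.8 CPM (SD, n = 3 each), and the 95% interval of the log2 fold change ran from -0.52 to 0.52 (edgeR with Benjamini-Hochberg adjustment, adjusted p = 0.993). Its sign turned with single livers, at 0.20 without sgPrdx2 liver 3.2 and -0.19 without liver 1.1. Markers of lymphatic endothelium had a median log2 fold change of -0.82, with 1 of 6 above 0 and 3 of 6 below all controls (17.5% of all genes), and summed levels of 124 to 148 CPM in sgCtrl and 91.3 to 137 CPM in sgPrdx2 livers. Most of these sums came from Reln (55.8 to 87.5 CPM in sgCtrl and 59.2 to 92.9 CPM in sgPrdx2 livers) and Flt4 (37.65 to 39.71 and 20.36 to 31.76 CPM). The median was -0.26 without sgCtrl liver 5.1, in which Mmrn1 and Ccl21a were at 5.80 and 6.49 CPM, and -0.51 with a minimum of 10 counts in each liver. Lyve1, 1 of the 3 markers below all controls, is also among the sinusoidal endothelial markers given below. The part of lymphatic endothelium in the Prox1 level was not tested.

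Per kb of exon, which allows levels of different genes to be compared, Hnf4a (82.3 ± 2.32 CPM per kb) and Cebpa (77.4 ± 14.6) led in sgCtrl livers, followed by Foxa3 (20.6 ± 4.58), Cebpb (18.2 ± 2.86), Foxa2 (10.4 ± 0.459), Prox1 (7.58 ± 1.43), Foxa1 (3.87 ± 0.125) and Onecut1 (0.549 ± 0.131; SD, n = 3 for each). Hnf4a and Cebpa lay within their spread of each other, as did Foxa3 and Cebpb. In sgPrdx2 livers Cebpa, at 123 ± 13.3 CPM per kb, had a higher mean than Hnf4a at 101 ± 10.2, and it was the higher in each of the 3 livers. In sgCtrl livers Hnf4a was lower than Cebpa in liver 7.1 only (83.8 against 90.4 CPM per kb). Onecut1 would be at 1.16 CPM per kb in sgCtrl and 0.981 in sgPrdx2 livers over the exon bases that it does not share, which leaves it last. Within sgCtrl livers Hnf4a, Foxa1 and Foxa2 varied least, with a highest level 1.05, 1.06 and 1.09 times the lowest, and Onecut1 and Foxa3 most, at 1.58 and 1.53 times. Within sgPrdx2 livers the same ratio was 1.22 for Hnf4a, 1.31 for Foxa1 and 2.53 for Onecut1.

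The direction given for several factors depended on how libraries were scaled. TMM, used here, centres the typical gene, and RLE and upper-quartile scaling gave medians of 0.34 and 0.31 over the 8 factors. Scaling by total counts alone moved the median of all genes to -0.39, and scaling to 6 housekeeping genes moved it to -0.38, with the 8 factors at a median of -0.05 under each. On those scales the log2 fold changes were 0.30 and 0.31 for Cebpa, 0.17 under both for Cebpb and 0.03 under both for Foxa2. Those of Hnf4a (-0.06 and -0.05), Foxa1 (-0.13 under both) and Foxa3 (-0.04 and -0.05) turned below 0, and those of Prox1 (-0.36 and -0.35) and Onecut1 (-0.57 under both) lay further below. Relative to the median of all genes on the same scale, Hnf4a was at 0.32 and 0.33, Cebpa at 0.69 under both and Foxa2 at 0.41 under both. A change of scaling shifts all genes by nearly the same amount, so these relative values had to lie near those under TMM. They are no separate check. The housekeeping genes themselves had a median log2 fold change of 0.43 under TMM, and 4 of 6 were higher in every sgPrdx2 liver.

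**Figure D2:**
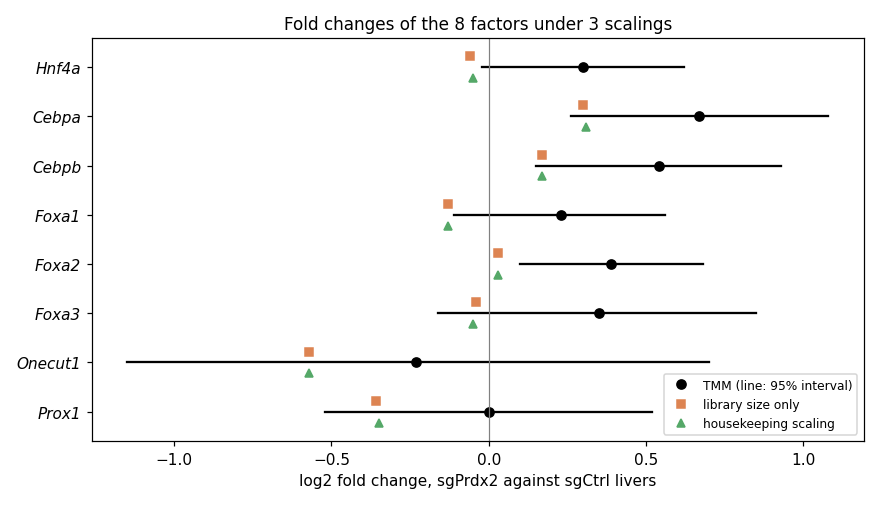
Log2 fold change of sgPrdx2 against sgCtrl livers (horizontal axis) for the 8 factors, with the TMM value and its 95% interval (black point and line), the value scaled by total counts alone (orange square) and the value scaled to 6 housekeeping genes (green triangle). The intervals of Cebpa, Cebpb and Foxa2 lie above 0 under TMM, and the squares and triangles of Hnf4a, Foxa1 and Foxa3 lie below 0.

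Several factor genes carry another gene on the opposite strand, and strand was not stated for the counting, so reads in shared bases cannot be told apart. Prox1os, an antisense RNA that starts inside Prox1 (chr1:190170296-190217276) and shares 1.6% of the exon bases of Prox1, was at 3.61, 3.36 and 3.67 CPM in sgCtrl livers 5.1, 7.1 and 7.2 and at 7.36, 5.95 and 6.67 CPM in sgPrdx2 livers 1.1, 1.3 and 3.2. It rose without overlap while Prox1 did not differ beyond its spread, and it passed the test (log2 fold change 0.91, standard error 0.16, edgeR with Benjamini-Hochberg adjustment, adjusted p = 0.0394), but not when scaled by total counts (0.53, adjusted p = 0.0614) or to housekeeping genes (0.54, adjusted p = 0.104). It passed without sgPrdx2 liver 3.2 but in none of the other 5 fits that left out 1 liver, in 4 of which no gene at all was called.

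Hnf4aos, the antisense RNA of Hnf4a (chr2:163493807-163541720), overlaps the span of Hnf4a but shares none of its exon bases (0). Whether reads of Hnf4a from outside its exons were counted for Hnf4aos was not tested. Hnf4aos had 9, 4 and 13 counts in sgCtrl and 44, 20 and 28 counts in sgPrdx2 livers. All sgPrdx2 livers were above all controls, at counts too low for a precise fold (log2 fold change 1.99, standard error 0.51, edgeR with Benjamini-Hochberg adjustment, adjusted p = 0.0702, and 0.0344 without a filter on low counts). Gm45091, antisense to the start of Cebpa with 51 shared exon bases, had 24, 43 and 40 counts in sgCtrl and 66, 94 and 61 counts in sgPrdx2 livers, again without overlap (log2 fold change 1.17, standard error 0.27, adjusted p = 0.0580 by edgeR and 0.00668 by DESeq2), and edgeR called it without a filter on low counts or with a minimum of 10 counts in each liver. Tmem189, which shares 20.7% of the exon bases of Cebpb from the other strand, went the other way from Cebpb, at 26.6, 24.5 and 25.0 CPM in sgCtrl and 20.4, 20.4 and 23.4 CPM in sgPrdx2 livers (log2 fold change -0.25, standard error 0.12, edgeR, adjusted p = 0.231). The other neighbours within 5 kb or on the opposite strand (Sympk beside Foxa3, A530013C23Rik beside Cebpb and Gm28172 at Prox1) overlapped between groups.

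**Figure D3:**
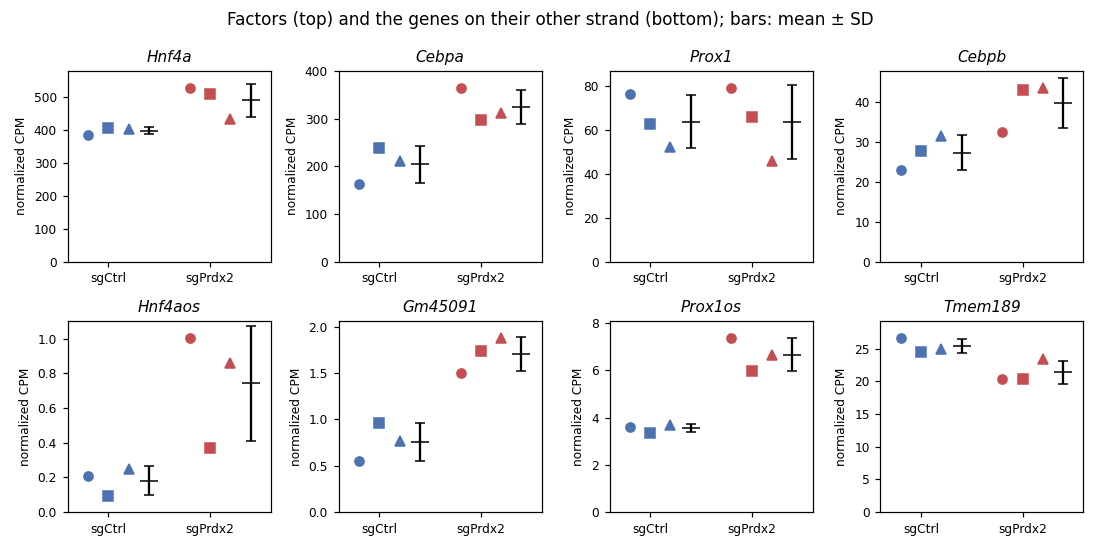
Normalized CPM (vertical axes, from 0) of 4 factors (top) and of the gene on the other strand of each (bottom) in 3 sgCtrl (blue) and 3 sgPrdx2 (red) livers, with the mean ± SD in black and mice marked by shape (circle, square and triangle for 5.1, 7.1 and 7.2 or 1.1, 1.3 and 3.2). Hnf4aos, Gm45091 and Prox1os are higher in all sgPrdx2 livers and Tmem189 is lower, while Prox1 overlaps between groups.

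Other transcription factors of the liver were taken from a list of 31, all of which were tested. None of them passed edgeR's test in either direction (0 higher and 0 lower, against 1.79% and 1.54% of all genes). At an unadjusted p under 0.05 there were 9 higher and 1 lower, against 13.0% and 11.9% of all genes, and 10 were above and 3 below all controls without overlap, against 16.7% and 17.5% of all genes. The median log2 fold change was 0.25 under TMM and -0.13 by total counts, and it was 0.14 without sgCtrl liver 7.2 and 0.16 without sgPrdx2 liver 1.1. The smallest p-values belonged to Klf15, a factor of amino acid and glucose metabolism (log2 fold change 0.85, adjusted p = 0.0660), and Nr1h4, the bile acid receptor FXR (0.59, adjusted p = 0.0668), both by edgeR with Benjamini-Hochberg adjustment. They were followed by the clock output factor Dbp (1.23, adjusted p = 0.0820), Creb3l3, a factor of lipid metabolism made in the endoplasmic reticulum (0.75, adjusted p = 0.0891), and Rxra, the partner of many nuclear receptors (0.47, adjusted p = 0.0984), by the same test. DESeq2 called all 5.

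Genes known to be bound by these factors had higher median log2 fold changes than the factors. Of 20 known HNF4A targets, edgeR called 5 higher and 0 lower, against 1.79% of all genes called higher and 1.54% called lower, and 13 were higher in every sgPrdx2 liver, against 16.7% of all genes. These shares of all genes are also those to set beside the lists that follow. The median log2 fold change of the HNF4A targets was 0.88 (0.49 by total counts), against -0.02 over all genes. The log2 fold change was above 0 for 17 of the 20. The exceptions were Apoa4 (-0.70), Pklr (-0.40) and Mttp (-0.0), each overlapping between groups. The 5 called higher were the apolipoproteins Apoa1, Apoa2 and Apoc3, the thyroid hormone carrier Ttr and the clotting factor F7. Ttr was at 3164, 4193 and 4164 CPM in sgCtrl livers 5.1, 7.1 and 7.2 and at 9658, 7325 and 12480 CPM in sgPrdx2 livers 1.1, 1.3 and 3.2, more than the ratio of 1.23 for Hnf4a itself (log2 fold change 1.35, standard error 0.24, edgeR with Benjamini-Hochberg adjustment, adjusted p = 0.0394). Apoc3 had a log2 fold change of 1.41, Apoa2 of 1.18, Apoa1 of 1.15 and F7 of 0.69, and none of the 4 overlapped between groups (edgeR with Benjamini-Hochberg adjustment, adjusted p from 0.0409 to 0.0494).

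All 11 known C/EBPα targets had a log2 fold change above 0, and 7 were higher without overlap (16.7% of all genes). Their median was 0.94 (0.56 by total counts). Only Alb (albumin) was called higher by edgeR (log2 fold change 0.97, Benjamini-Hochberg adjusted p = 0.0473). The 11 known FOXA targets, which share genes with both lists, held 3 that edgeR called higher (Alb, Ttr and Apoa1), with 6 higher without overlap and a median of 0.94 (0.55 by total counts). Of these 11, 9 had a log2 fold change above 0, and Igfbp1 (-0.90) and Afp (-0.14) were below 0 with overlapping groups. Of 15 acute phase genes bound by C/EBPβ, Fgb (a fibrinogen chain, log2 fold change 0.83) and Saa4 (a serum amyloid, 1.07) were called higher, each with an adjusted p of 0.0491 by edgeR with Benjamini-Hochberg adjustment, with 6 higher and 1 lower without overlap (16.7% and 17.5% of all genes). The median of the acute phase list was 0.47 under TMM, with 12 of 15 genes above 0, but 0.09 by total counts and 0.10 under housekeeping scaling. None of the genes of these 4 lists passed edgeR's test downward (0). DESeq2 called further genes of each list higher, among the C/EBPα targets Cps1, Pck1, Gys2, Hamp and Arg1. It called Lcn2 of the acute phase list lower (log2 fold change -0.73, DESeq2 adjusted p = 0.0295). It also called each of the genes that edgeR called, to which the refits below refer. Scaling by total counts ended the calls of F7 and Fgb, and housekeeping scaling those of F7, Fgb, Alb, Apoc3 and Saa4. A minimum of 10 counts in each liver ended those of Alb (edgeR, adjusted p = 0.0571) and Fgb (0.0512). No gene at all was called without sgCtrl liver 5.1 or 7.2 or sgPrdx2 liver 1.1 or 1.3. Without sgCtrl 7.1, of these genes only Apoc3 and Saa4 passed, and without sgPrdx2 3.2 only Ttr, Apoa1, Apoa2 and F7. The lists hold abundant hepatocyte RNAs, and 5 of the 6 hepatocyte markers (Alb, Apoa1, Ttr, Cps1 and Tat) are themselves in them, so that the marker list, of which edgeR called 4 of 6 higher with a median of 0.96, is no separate measure. The part of hepatocyte number in these levels was not tested.

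**Figure D4:**
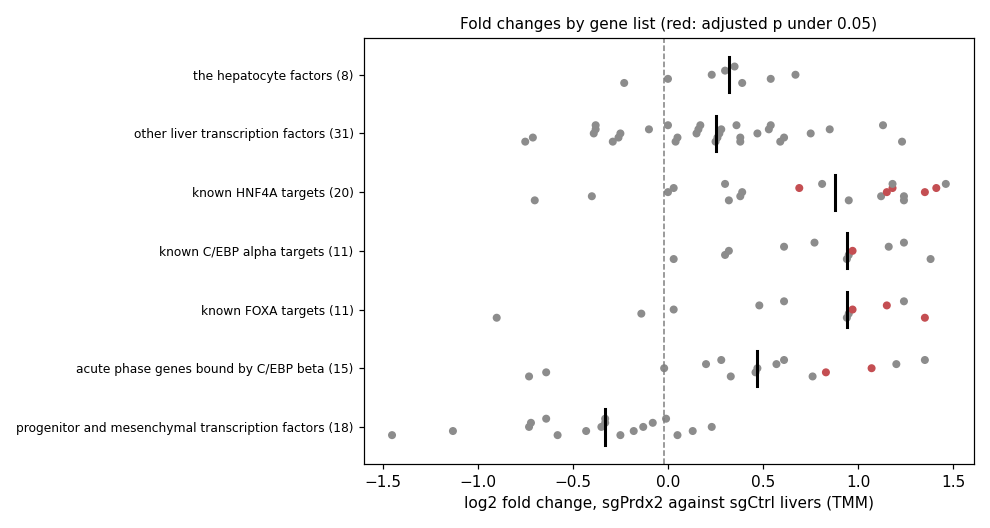
Log2 fold change under TMM (horizontal axis) of each gene in 7 lists (vertical axis, number tested in brackets), with genes at an adjusted p under 0.05 by edgeR in red, list medians as black bars and the median of all genes (-0.02) as a dashed line. The medians are 0.32 for the 8 factors, 0.88 for HNF4A targets, 0.94 for C/EBPα and FOXA targets, 0.47 for acute phase genes and -0.33 for progenitor and mesenchymal factors; genes may stand in more than 1 list.

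Transcription factors of progenitor and mesenchymal cells are known to gain where hepatocyte identity is lost. Of 19 listed, 18 were tested, since Lin28b had 0 counts in all livers. None passed edgeR's test (0 higher, 0 lower), 7 were lower and 0 higher at an unadjusted p under 0.05 (11.9% and 13.0% of all genes), and 6 were below all controls (17.5% of all genes). The log2 fold change was above 0 for 3 of the 18 (Id3 0.23, Snai2 0.13 and Yap1 0.05). Their median log2 fold change was -0.33 (-0.69 by total counts). Zeb2, a repressor of epithelial genes, was at 33.2, 37.8 and 34.5 CPM in sgCtrl and 23.3, 25.6 and 14.99 CPM in sgPrdx2 livers (log2 fold change -0.72, edgeR with Benjamini-Hochberg adjustment, adjusted p = 0.0809). Klf6, an injury-induced factor, had a log2 fold change of -0.73 (edgeR, adjusted p = 0.0864), and Tead2, a partner of YAP, of -0.43 (adjusted p = 0.162). DESeq2 called Zeb2 and Klf6 (adjusted p = 0.0172 and 0.0166). Scaling by total counts, under which the median of all genes is -0.39, called Zeb2, Klf6, Tead2 and Hmga2 by edgeR. Klf5 and Hmga2, at -1.45 and -1.13 (edgeR, adjusted p of 0.155 and 0.140), were near or below 1 CPM in most livers. Zeb2 and Klf6 are also expressed by stellate cells and macrophages, and markers of mesenchymal cells (median -0.49, summed 1057 to 1223 CPM in sgCtrl and 796 to 848 CPM in sgPrdx2 livers), cholangiocytes (median -0.41, 1630 to 1858 and 1217 to 1393 CPM) and sinusoidal endothelium (median -0.29, 259 to 289 and 194 to 287 CPM) had negative medians beside them. The cholangiocyte median was -0.20 without sgCtrl liver 5.1, and the sinusoidal one was -0.11 without sgPrdx2 liver 3.2 and -0.47 without 1.1. Spp1 made up most of the cholangiocyte sum, at 1492 to 1707 CPM in sgCtrl and 1080 to 1258 CPM in sgPrdx2 livers. Spp1, Epcam and Cftr were below all controls (3 of 6, against 17.5% of all genes), while Krt7, Krt19 and Sox9 overlapped between groups. The part of all these cell types in the levels of the progenitor and mesenchymal factors was not tested.

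Set against albumin, the factors had lower means. Alb took 6.85% ± 0.21 of all counts in sgCtrl and 10.3% ± 1.01 in sgPrdx2 livers (SD, n = 3 each). The log2 ratio of a factor to Alb counts in the same liver needs no scaling between libraries, and it had a lower mean in sgPrdx2 livers for all 8 factors. It was lower in every sgPrdx2 liver for Hnf4a (by a mean log2 difference of -0.66), Foxa1 (-0.74), Foxa2 (-0.58) and Prox1 (-0.98), each at the smallest p the design allows (two-sided exact permutation tests, p = 0.1, adjusted p = 0.2 over 8 factors). It overlapped between groups for Cebpa (-0.27), Cebpb (-0.42), Foxa3 (-0.61) and Onecut1 (-1.31), with p from 0.2 to 0.3 in the same exact permutation tests. The Hnf4a ratio was -7.27, -7.27 and -7.19 in sgCtrl livers 5.1, 7.1 and 7.2 and -7.92, -7.59 and -8.21 in sgPrdx2 livers 1.1, 1.3 and 3.2, and it was thus much tighter among controls. This ratio was added after the values were seen. Alb had a higher log2 fold change (0.97) than any of the 8 factors (at most 0.67, for Cebpa). Lower mean ratios for all 8 followed from those values and are no separate result on the factors.

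**Figure D5:**
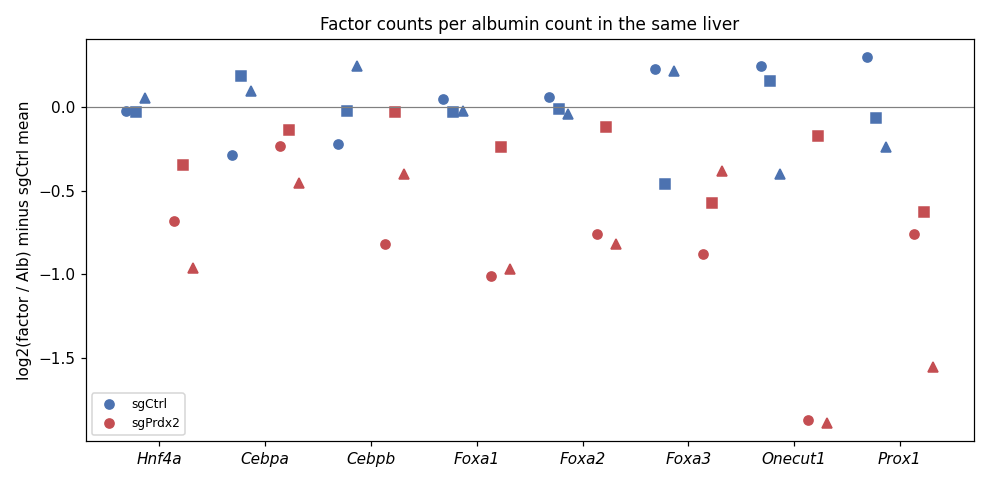
Log2 ratio of the counts of each factor to the counts of Alb in the same liver, less the mean of the 3 sgCtrl livers (vertical axis), for the 8 factors (horizontal axis) in sgCtrl (blue) and sgPrdx2 (red) livers, with mice marked by shape (circle, square and triangle for 5.1, 7.1 and 7.2 or 1.1, 1.3 and 3.2). All red points lie below all blue points for Hnf4a, Foxa1, Foxa2 and Prox1, and they overlap for Cebpa, Cebpb, Foxa3 and Onecut1.

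Across the 6 livers, which share the difference between groups, the factors did not all follow the same pattern. By Pearson's r of log2 CPM over 6 livers, given as a description, Foxa1 was closest to Foxa2 (0.92), and Hnf4a to Cebpa and Foxa2 (0.86 each), while Foxa3 had an r of 0.14 with Hnf4a, 0.10 with Foxa1 and 0.23 with Foxa2. Prox1 had an r of -0.53 with Cebpb and Onecut1 an r of -0.58 with Foxa3. Among 9266 other genes at a mean CPM of 10 or more (9267 for Onecut1, itself below that level), the most alike were Dsg1c, Rdh14 and Pex7 for Hnf4a (0.99, 0.99 and 0.989), and Mccc2, Dld and Fggy for Cebpa (0.997, 0.996 and 0.996). For Cebpb they were Paip2, Ldah and Ier2 (0.987, 0.971 and 0.966), for Foxa1 Smg6, Zfp809 and Phlda1 (0.987, 0.977 and 0.976), and for Foxa2 Mknk2, Clk4 and Elovl2 (0.993, 0.979 and 0.972). For Foxa3 they were Itfg2, 1810037I17Rik and Apol9a (0.996, 0.987 and 0.984), for Onecut1 Rassf4, Ube2d1 and Lbr (0.989, 0.932 and 0.923), and for Prox1 Stk35, Klf13 and Ugt1a1 (0.986, 0.984 and 0.983). Cebpa had 540 genes with an r over 0.9, against 205 for Foxa3, 155 for Hnf4a, 99 for Cebpb, 86 for Prox1, 58 for Foxa2, 17 for Foxa1 and 7 for Onecut1.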

How the data were processed

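RNA-Seq libraries of total liver RNA, 1 per mouse, were analysed from the gene counts that the authors deposited, whole numbers without normalization. The submitters' processing notes name HISAT2, HTSeq, DESeq2 and the build GRCm38. The annotation release and strand setting are not given in the sources used here. A second deposited table with the authors' own comparison (fold changes and p-values) was not used. The 8 factors and all gene lists, written from general knowledge, were chosen with earlier results of these data known.

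In R 4.3.3, edgeR 4.0.16 was run on all genes kept by filterByExpr (minimum count 10), with TMM scaling and the quasi-likelihood test of 3 sgPrdx2 against 3 sgCtrl livers. Benjamini-Hochberg adjusted p-values under 0.05 were called. Standard errors and 95% intervals come from this fit. DESeq2 1.42.0, other scalings (RLE, upper quartile, total counts, 6 housekeeping genes), other filters and leaving out each liver were alternatives. Single values were compared by exact permutation tests, and 0.5 was added to counts in ratios and to CPM in correlations. The fits were tested on simulated data. No pair of libraries agreed within sampling noise. Each mouse gave 1 library, with no batch or date in the labels. No first part of a mouse number (shared by 7.1 and 7.2, and by 1.1 and 1.3) occurs in both groups. What it stands for is not given in the labels, and it cannot be told apart from the group. Exon lengths and positions come from a GENCODE annotation of GRCm38, promoters from RefSeq.

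Named beside the 8 factors were, in each list, genes with an adjusted p under 0.05 (or up to 5 with the smallest p), neighbours on the other strand or starting within 5 kb, and the 3 genes most alike across livers. Onecut2, Dbp, Tef, Hlf and Nfil3 were chosen for description after their values were seen. Results on 1 gene and its motif are not reported here.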

Additional observations from a re-analysis of the deposited data

How the results depend on the processing

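No paired analysis was possible because the mouse numbers of the groups share no replicate number. None of the 8 factors (0) was called under RLE, upper-quartile, total-count or housekeeping scaling, without a filter, with a minimum of 10 counts in each liver, or in any of the 6 fits that left out 1 liver. DESeq2 called 2, Cebpa (log2 fold change 0.68) and Cebpb (0.54), and an adjusted p under 0.1 gave 1 (Cebpa). Scaling by total counts and to housekeeping genes turned Hnf4a (-0.06 and -0.05), Foxa1 (-0.13 and -0.13) and Foxa3 (-0.04 and -0.05) below 0, by the shift of all genes given above. Prox1, at -0.00 under TMM, was at 0.01 under RLE and 0.00 in DESeq2, -0.36 by total counts and -0.35 by housekeeping scaling, and between -0.19 and 0.20 when 1 liver was left out. The remaining log2 fold changes of the factors kept their sign under every alternative run, although Onecut1 reached -0.00 without sgPrdx2 liver 1.1 or 3.2 and -0.81 without 1.3. Genes called among all tested were 567, against 3247 by total counts, 989 by housekeeping scaling, 1128 without a filter, 2052 by DESeq2, 1767 at an adjusted p under 0.1, and 0 to 619 when 1 liver was left out (0 in 4 of 6 such fits, 394 without sgCtrl 7.1 and 619 without sgPrdx2 3.2), the fits with 0 calls holding 3114 to 3993 genes at an unadjusted p under 0.05. Of 281 refits of the 22 other named genes, 202 stayed on the same side of the threshold, 58 fell below it, 21 passed it and 0 changed direction. The log2 ratio of Cebpa to Cebpb and the FOXA shares moved by less than the SD pooled over both groups, but their signs turned: when 1 liver was left out the ratio differed between groups by -0.08 (without sgPrdx2 1.1) to 0.27, and the shares of Foxa1, Foxa2 and Foxa3 by -1.97 to 0.03, -1.66 to 3.81 and -3.83 to 3.63 percentage points. With 3 livers a group the 95% intervals of the factors are wide, and a log2 difference of the size of that of Foxa1 could not be shown.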

Other observations

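The clock output factors Dbp, Tef and Hlf, which bind the same kind of site and drive daily rhythms of liver genes, differed among the controls themselves. Dbp was at 174, 87.3 and 95.9 CPM in sgCtrl livers 5.1, 7.1 and 7.2, and at 255, 192 and 392 CPM in sgPrdx2 livers 1.1, 1.3 and 3.2. Tef was at 147, 78.0 and 70.1 CPM in the controls and 128 to 168 CPM in sgPrdx2 livers, and Hlf at 41.0 CPM in liver 5.1, against a mean of 27.0 CPM over the controls, and 33.7 to 49.3 CPM in sgPrdx2 livers. Liver 5.1 was thus the highest control for each of them, and the lowest for Nfil3 (6.42, 15.1 and 19.9 CPM), a repressor at the same sites. None of these 4 passed edgeR's test with Benjamini-Hochberg adjustment (adjusted p = 0.0820 for Dbp, 0.288 for Tef, 0.311 for Hlf and 0.535 for Nfil3), and the time of day at which each liver was taken is not given in the labels.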
